A study of Homo sapiens with 24 samples.

Results

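NRF2 is the transcription factor that switches on genes for detoxification and antioxidant defence, and 9 genes of this system were examined in MDA686TU cells treated with resveratrol, EGCG or both. The genes were chosen by name, from 60617 rows of the deposited count table. They are NFE2L2, which encodes NRF2, its repressor KEAP1, the redox genes NQO1, NMRAL2P, TXN and SRXN1, and the pentose phosphate enzymes PGD, TALDO1 and TKT. All 9 had enough counts to be tested, among 15476 tested genes.

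MDA686TU is a human head and neck squamous cell carcinoma line. RNASeq was performed on 4 groups of 6 libraries: no treatment (NT), 40 µM EGCG, 15 µM resveratrol, and the combination of the same concentrations. EGCG is a catechin and resveratrol a stilbene, both plant polyphenols. All cells were treated for 24 h in the same medium with serum, and all libraries came from this 1 line. The resveratrol stock was made in DMSO, while water was used for EGCG. The sources read here do not say whether NT cells received DMSO, so resveratrol and its solvent cannot be told apart. Nor do they say that the 6 replicates came from separate cultures, so p-values measure the spread between these libraries.

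The libraries held 7034872 to 11735574 counts. The 6 squamous epithelial markers examined, among them the keratins KRT5 and KRT14, were expressed in every library. Their summed FPKM was 5399.8 to 5698.0 in NT and 5161.0 to 5833.1 in EGCG libraries, and lower, at 4518.1 to 4770.6 and 4448.8 to 4858.2, in resveratrol and combination libraries. KRT5, KRT14 and KRT6A were called lower against NT, at -0.29, -0.29 and -0.27 on the log2 scale with resveratrol and -0.37, -0.34 and -0.35 with the combination, while DSG3 was called higher, at 0.42 and 0.44. SFN was called lower with resveratrol (-0.10) but not with the combination (0.03). TP63 was called higher with the combination (0.09) but not called with resveratrol (-0.04). Over all tested genes 28.9% were called higher and 28% lower with resveratrol, and 29.9% in each direction with the combination. Of 9 markers of other cell types, 7 had a median of 3 counts or less over all 24 libraries. CD68 had 1 to 11 counts, and the collagen gene COL1A1 was expressed, with 753 to 1951 counts. Against NT, COL1A1 fell by 0.27 on the log2 scale with EGCG and was higher by 0.29 with resveratrol and higher by 0.48 with the combination, and its interaction of 0.46 was called (edgeR adjusted p = 7.9e-04). The part of these markers in the results below was not tested. The share of mitochondrial transcripts was 0.249% to 0.326% for replicates 1 to 3 of the groups, and for replicates 4 to 6 it was 0.448% to 0.775%. The labels name no batch, and each of these sets holds 3 libraries of every group.

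In resting cells KEAP1 holds NRF2 in the cytoplasm and, with the ubiquitin ligase scaffold CUL3, sends it for degradation. Oxidants and electrophiles that modify KEAP1 let NRF2 accumulate, enter the nucleus and bind antioxidant response elements together with small MAF proteins. NRF2 is thus controlled largely at the protein level, which mRNA counts do not measure. Among its best known targets are NQO1, a quinone reductase, and the enzymes of the oxidative pentose phosphate branch, which reduce NADP to NADPH. NADPH in turn feeds thioredoxin reductase, glutathione reductase and quinone reductases. Mutations that keep this pathway active are frequent in squamous cancers.

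The letters that the antioxidant response element is known by, TGACNNNGC, were searched on both strands in the 1000 bases before each RefSeq start site (GRCh38). RefSeq start sites were at hand for 8 of the 9 genes, with 10 start sites in all, and NMRAL2P was not analysed here. A match was found for 5 genes, at 5 of the 10 start sites. Of all 35116 start sites searched, 31.9% had a match, so a match is common and describes letters, not binding. The 4 windows of 41 bases outside untranslated exons are shown because they hold the letters beside genes that rose, fell or did not pass the test. Capitals mark the match, and each window is written 5′ to 3′ on the strand that reads TGACNNNGC.
NQO1: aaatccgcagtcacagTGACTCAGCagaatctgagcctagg
PGD: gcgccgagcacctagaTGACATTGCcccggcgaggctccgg
TXN: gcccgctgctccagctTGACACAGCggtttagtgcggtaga
TALDO1: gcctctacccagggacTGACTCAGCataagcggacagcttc

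The NQO1 window lies at chr16:69726991-69727031 on the minus strand, with its match 447 bases before the start site, and it overlaps an exon of the divergent noncoding transcript NQO1-DT. The PGD window is at chr1:10398847-10398887 on the minus strand, 193 bases before the RefSeq start site and inside the longer PGD gene of GENCODE v44. The TXN window is at chr9:110257064-110257104 on the plus strand, 573 bases before the start site. The TALDO1 window is at chr11:746495-746535 on the plus strand, 945 bases before the start site. The same core, TGACTCAGC, stands before NQO1 and TALDO1, and in both it also contains the AP-1 letters TGANTCA. KEAP1 had 2 matches, 23 and 46 bases before 1 of its start sites, in an untranslated exon of another KEAP1 transcript. No match was found in the windows of NFE2L2, TKT and SRXN1.

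With resveratrol, KEAP1, NQO1, NMRAL2P, SRXN1 and PGD were higher, TXN and TKT were slightly lower, and NFE2L2 and TALDO1 did not pass the test. With resveratrol against NT, 5 of the 9 genes were called higher and 2 lower, where 28.9% of all tested genes were called higher and 28% lower. A gene was called when its Benjamini-Hochberg adjusted p over all 15476 genes was under 0.1 and its unadjusted p under 0.05, in edgeR's quasi-likelihood test on raw counts. With the combination against NT, 4 were called higher and 2 lower, beside 29.9% of tested genes called higher and 29.9% lower. EGCG alone gave no call among the 9, beside 0.905% of tested genes higher and 0.859% lower. For EGCG, 1 gene, NFE2L2, had an unadjusted p under 0.05 in edgeR, and DESeq2 called 0 of the 9.

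**Figure D1:**
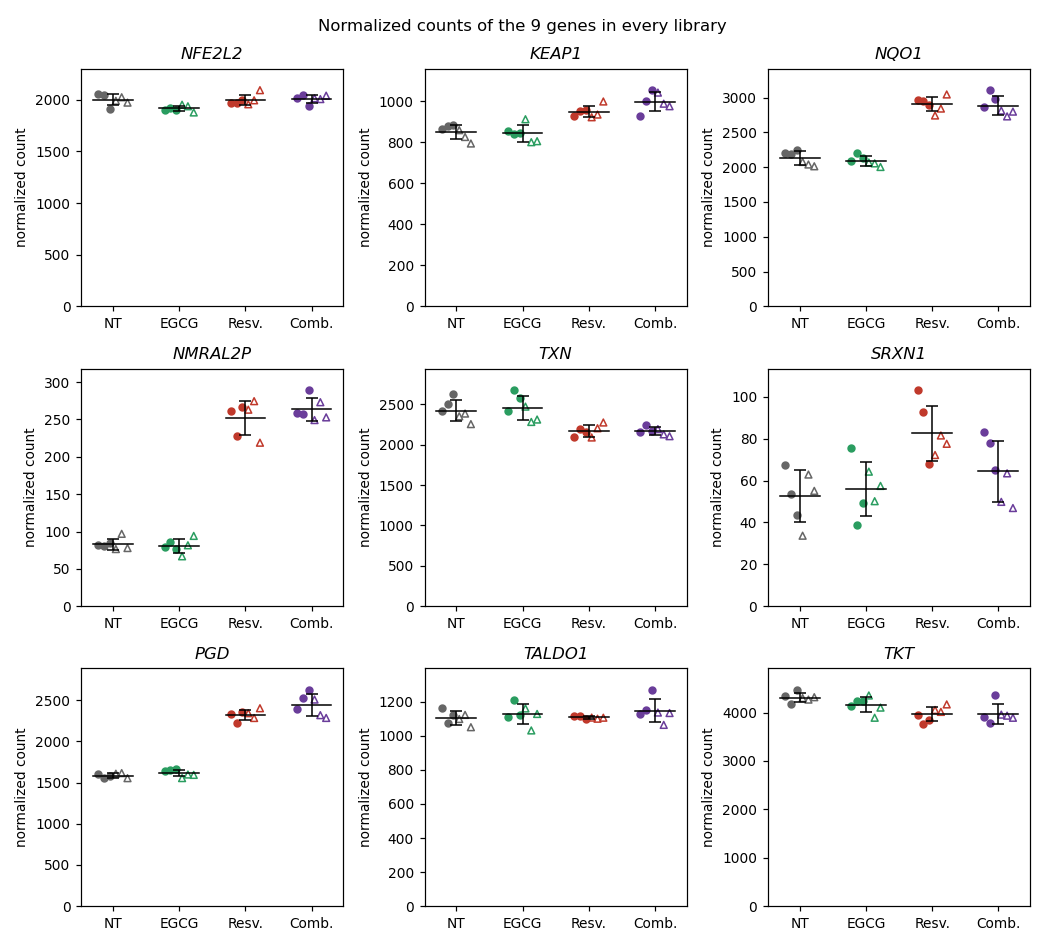
Normalized counts (y axis, from 0) of the 9 genes in each of 24 libraries by treatment group (x axis); circles are replicates 1 to 3, triangles are replicates 4 to 6, and the line and bars are the mean ± SD of 6 libraries. NQO1, NMRAL2P, PGD and, by a narrow margin, KEAP1 show resveratrol and combination libraries above all NT and EGCG libraries, while the NFE2L2 and TALDO1 groups overlap.

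Per length of gene (FPKM), TXN had the highest level in NT cells, with a median of 272.2, followed by NQO1 with 82.18. PGD had 54.68 and TKT 51.97, and the libraries of this pair overlapped. TALDO1 had 43.74 and NFE2L2 40.57, also with overlapping libraries, and KEAP1 had 27.61. NMRAL2P had 3.551 and SRXN1 2.307, the lowest of the 9, and the libraries of these low genes did not overlap. Values below are the authors' normalized counts, which are raw counts divided by 1 factor per library and can be compared between groups for the same gene.

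NFE2L2 (ENSG00000116044, GRCh38 chr2:177218667-177392756, minus strand) ranged from 1914.2 to 2056.8 normalized counts in NT cells, with a median of 2007.4. With EGCG it ranged from 1877.4 to 1952.1 (median 1915.2), with resveratrol from 1956.5 to 2093.1 (median 1983.5) and with the combination from 1941.7 to 2050.1 (median 2014.3). Of the EGCG libraries, 3 lay below the lowest NT library, and the overlap of these groups rested on NT replicate 3, since the next NT library, at 1972.5, lay above every EGCG library. The resveratrol and combination libraries overlapped the NT range broadly. The difference from NT was 0.00 ± 0.0267 (log2 fold change ± SE) with resveratrol, with a 95% interval of -0.05 to 0.05. It was 0.01 with the combination and -0.06 with EGCG, which had an unadjusted p of 0.0298 and an edgeR adjusted p of 0.402. The exact permutation test of EGCG against NT gave p = 0.0108, as 1 of 45 such tests. Combination libraries were higher than EGCG libraries by 0.07 (edgeR adjusted p = 0.0259). Exons of NFE2L2 overlap those of AGPS and HNRNPA3 on the opposite strand, and the strand setting of the counting is not given in the sources used here, so its counts may include reads of these genes.

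KEAP1 (ENSG00000079999, chr19:10486125-10503558, minus strand) rose modestly. It ranged from 793 to 883.3 normalized counts in NT cells (median 860.7) and from 799.4 to 911.2 with EGCG (median 842.4). With resveratrol it ranged from 920.9 to 997.7 (median 942) and with the combination from 929 to 1052.8 (median 992.8). All 6 resveratrol libraries and all 6 combination libraries lay above all NT libraries. The rise was 0.16 ± 0.037 with resveratrol (edgeR adjusted p = 4.0e-04) and 0.23 ± 0.0371 with the combination (edgeR adjusted p = 1.6e-06), 1.12-fold and 1.18-fold. Within replicates 1 to 3 the resveratrol difference was 0.12 and within replicates 4 to 6 it was 0.20. The combination and resveratrol libraries overlapped, and their difference of 0.07 had a 95% interval of -0.00 to 0.15 and an adjusted p of 0.288 in edgeR.

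NQO1, the quinone reductase that serves as a standard readout of NRF2 activity (ENSG00000181019, chr16:69706996-69726668, minus strand), ranged from 2013.4 to 2248.4 normalized counts in NT cells (median 2130.7). With EGCG it ranged from 2003.3 to 2202.9 (median 2076.8), with resveratrol from 2743.8 to 3046.2 (median 2921.9) and with the combination from 2730.8 to 3107.8 (median 2842.5). The 12 libraries with resveratrol, alone or combined, lay above the 12 without it. NQO1 rose 1.37-fold with resveratrol (log2 0.45 ± 0.0338, edgeR adjusted p = 8.2e-14) and 1.36-fold with the combination (edgeR adjusted p = 1.3e-13). EGCG alone gave -0.02, with a 95% interval of -0.09 to 0.05. Adding EGCG to resveratrol gave -0.01, with a 95% interval of -0.08 to 0.05. Of its relatives, NQO2, a quinone reductase that does not use NADPH, was higher by 0.44 with resveratrol and 0.38 with the combination. The 3 tested genes whose changes over the 24 libraries were most like those of NQO1 were FTH1P16, FTH1P3 and FTH1P11, with a mean absolute difference of 0.0456 to 0.0487 in log2 CPM centred on NT. These are pseudogenes of the ferritin heavy chain, and reads assigned to them may come from FTH1 itself.

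NMRAL2P showed the largest fold change of the 9 genes. It is a transcribed pseudogene (ENSG00000171658, chr3:185960039-185979837, plus strand) that has been described as an NRF2 target. NT libraries held 76.51 to 96.9 normalized counts (median 81.44) and EGCG libraries 66.83 to 94.12 (median 80.76). Resveratrol libraries held 218.9 to 274.5 (median 262.4) and combination libraries 249.2 to 289.3 (median 258.3). Every library with resveratrol, alone or combined, lay above every library without it. The rise was 3.04-fold with resveratrol (log2 1.61 ± 0.0745, edgeR adjusted p = 1.5e-19) and 3.18-fold with the combination (log2 1.67 ± 0.0749, edgeR adjusted p = 3.6e-20). The combination and resveratrol alone differed by 0.07, with a 95% interval of -0.06 to 0.19. Its parent-like gene NMRAL1, a redox sensor of the NmrA family, was higher by 0.16 in resveratrol libraries and 0.20 in combination libraries. The genes most like NMRAL2P over the 24 libraries were INHBE, GCLC and ACSS2, with mean absolute differences of 0.124 to 0.153. A second GENCODE gene of the same symbol overlaps it and has no row of its own here, so reads of the pair cannot be told apart.

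**Figure D2:**
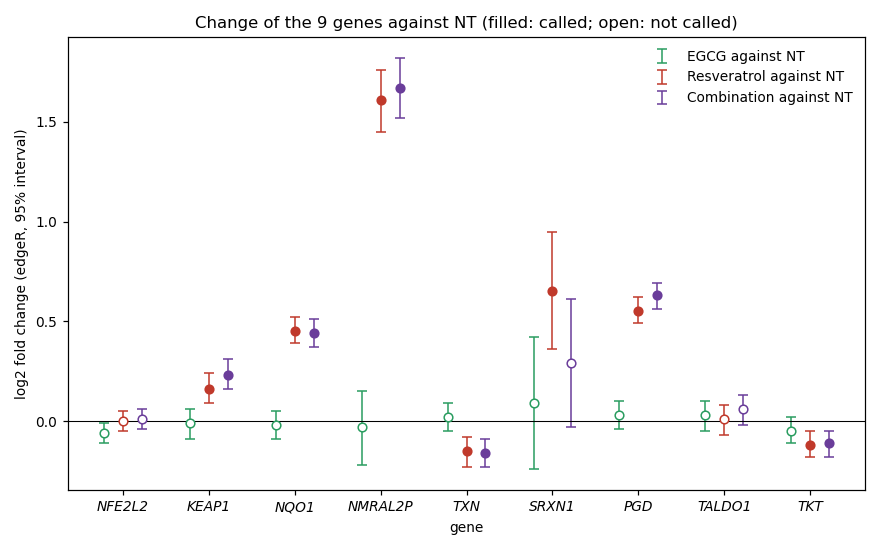
Log2 fold change against NT (y axis) of the 9 genes (x axis) for EGCG, resveratrol and the combination, with 95% intervals from edgeR; filled points were called and open points were not. No EGCG point is filled, NMRAL2P is highest at 1.61 and 1.67, and TXN and TKT lie below 0 with both resveratrol treatments.

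With resveratrol TXN fell and SRXN1 rose. Thioredoxin, encoded by TXN (ENSG00000136810, chr9:110243810-110256507, minus strand), reduces disulfides in proteins and is itself reduced by thioredoxin reductase with NADPH. TXN ranged from 2254.6 to 2627.7 normalized counts in NT cells (median 2398.9), from 2281.4 to 2675.7 with EGCG (median 2443.1), from 2089.0 to 2274.8 with resveratrol (median 2181.6) and from 2105.1 to 2244.1 with the combination (median 2160.7). The combination libraries lay below all NT libraries, and the resveratrol libraries overlapped the lowest of them. TXN fell by 0.15 on the log2 scale with resveratrol (SE 0.0359, edgeR adjusted p = 4.8e-04) and fell by 0.16 with the combination (edgeR adjusted p = 3.0e-04). Within replicates 1 to 3 the resveratrol difference was -0.21 and within replicates 4 to 6 it was -0.09. With library size alone as the scaling it was -0.07 and was not called (edgeR adjusted p = 0.117). The genes most like TXN were RPL11, ATP5F1E and OAZ1, with mean absolute differences of 0.0354 to 0.0362.

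SRXN1 (ENSG00000271303, chr20:646615-653200, minus strand) encodes sulfiredoxin, which repairs overoxidized peroxiredoxins. It was expressed at a low level, so its spread was wider. NT libraries held 33.67 to 67.27 normalized counts (median 54.32), EGCG libraries 38.78 to 75.73 (median 53.8), resveratrol libraries 68.09 to 103.2 (median 79.55) and combination libraries 46.89 to 83.43 (median 64.16). All resveratrol libraries lay above all NT libraries, and the combination libraries overlapped both. SRXN1 rose 1.57-fold with resveratrol (log2 0.65 ± 0.147, edgeR adjusted p = 3.1e-04). With the combination the difference from NT was 0.29 ± 0.158 (edgeR adjusted p = 0.121), being 0.45 within replicates 1 to 3, where it was called (edgeR adjusted p = 0.0715), and 0.07 within replicates 4 to 6. It was called in 4 of 11 alternative settings and in 4 of 12 fits with a library left out, those without NT replicate 1 or 5 (0.37 and 0.36) or combination replicate 4 or 6 (0.35 and 0.37), at edgeR adjusted p-values of 0.0513 to 0.0713. The combination differed from resveratrol by -0.37, with a 95% interval of -0.66 to -0.08, an unadjusted p of 0.0149 and an edgeR adjusted p of 0.149. The exact permutation test of this difference gave p = 0.0519. Without combination replicate 1 the difference was -0.45 and was called (edgeR adjusted p = 0.0783).

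PGD encodes 6-phosphogluconate dehydrogenase, an NADPH-producing step of the oxidative pentose phosphate branch (ENSG00000142657, chr1:10398592-10420511, plus strand). NT libraries held 1552.8 to 1614.3 normalized counts (median 1590.4), EGCG libraries 1553.7 to 1659.9 (median 1617.7), resveratrol libraries 2218.0 to 2401.3 (median 2336.5) and combination libraries 2283.5 to 2622.0 (median 2446.8). The libraries with resveratrol lay far above those without it. PGD rose 1.47-fold with resveratrol (log2 0.55 ± 0.0321, edgeR adjusted p = 7.5e-17) and 1.54-fold with the combination (log2 0.63 ± 0.0322, edgeR adjusted p = 1.7e-18). The combination exceeded resveratrol by 0.07, with a 95% interval of 0.01 to 0.14, an unadjusted p of 0.0288 and an edgeR adjusted p of 0.211. Its processed copy PGDP1 had means of 51.23 normalized counts in NT and 75.35 with resveratrol, and reads shared by this near-identical pair are of uncertain origin. CTSB, ADGRG1 and LGMN were the genes most like PGD, with mean absolute differences of 0.0421 to 0.0494.

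The members of the non-oxidative branch, which interconverts sugar phosphates and makes no NADPH, did not rise with it. TALDO1, transaldolase (ENSG00000177156, chr11:747415-765012, plus strand), held 1050.4 to 1165.7 normalized counts in NT cells (median 1109.6), 1031.4 to 1209.7 with EGCG (median 1126.1), 1099.1 to 1117.6 with resveratrol (median 1106.4) and 1064.0 to 1268.5 with the combination (median 1135.0). These groups overlapped throughout, and the resveratrol libraries were the closest together. The difference was 0.01 with resveratrol (95% interval -0.07 to 0.08) and 0.06 with the combination (95% interval -0.02 to 0.13), and neither was called. The combination difference was called with library size alone (0.14), with a minimum of 10 counts in every library (0.08), and without NT replicate 5 or combination replicate 5 (0.08 in each).

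TKT, transketolase (ENSG00000163931, chr3:53224712-53256052, minus strand), held 4172.1 to 4466.2 normalized counts in NT cells (median 4309.2), 3893.6 to 4354.0 with EGCG (median 4190.8), 3771.1 to 4169.3 with resveratrol (median 3978.5) and 3776.4 to 4368.2 with the combination (median 3927.8). All resveratrol libraries lay below all NT libraries, by a narrow margin, and the combination libraries overlapped through replicate 3. TKT fell by 0.12 on the log2 scale with resveratrol (SE 0.0322, edgeR adjusted p = 0.00269) and fell by 0.11 with the combination (edgeR adjusted p = 0.00312). These falls left 0.922 and 0.924 of the NT level, and with library size alone as the scaling both were -0.03 and not called. Within replicates 4 to 6 the resveratrol difference was -0.07 and not called (edgeR adjusted p = 0.123). The related genes TKTL1 and TKTL2 were at or near 0.

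Adding resveratrol to EGCG gave calls among the 9, and adding EGCG to resveratrol gave none. For the combination against EGCG, 5 of the 9 genes were called higher (NFE2L2, KEAP1, NQO1, NMRAL2P and PGD) and 1 lower (TXN), beside 28.7% and 29.1% of all tested genes. The largest was NMRAL2P at 1.71, followed by PGD at 0.60 and NQO1 at 0.46. For the combination against resveratrol, edgeR called none of the 9, beside 4.01% of tested genes higher and 3.86% lower, 2 genes (SRXN1 and PGD) had an unadjusted p under 0.05, and DESeq2 called 0. The interaction term, which asks whether the combination departs from the sum of the log2 changes with the single agents, was called for none of the 9, beside 0.207% of tested genes higher and 0.0582% lower. SRXN1 had the largest interaction, -0.46 ± 0.215, with an unadjusted p of 0.0413 and an edgeR adjusted p of 0.624.

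Genes that work beside the 9 were counted from lists of textbook members, chosen with earlier results of these data known. Of 8 tested pentose phosphate enzymes listed beside the 9 genes, 3 rose and 5 fell with resveratrol, and the same numbers rose and fell with the combination, with medians of -0.13 and -0.17 beside 0.00 and -0.00 for all tested genes. Over all tested genes 28.9% were called higher and 28% lower with resveratrol, and 29.9% in each direction with the combination. PGLS, the lactonase that makes the substrate of PGD, rose by 0.35 with resveratrol and 0.34 with the combination, and H6PD, an enzyme inside the endoplasmic reticulum, rose by 0.73 and 0.72. RBKS, a ribokinase, rose by 0.58 and 0.74. RPIA and RPE, the latter chosen here after its values were seen, are the isomerase and epimerase that follow PGD, and they fell by 0.60 and 0.11 with resveratrol and by 0.64 and 0.21 with the combination.

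**Figure D3:**
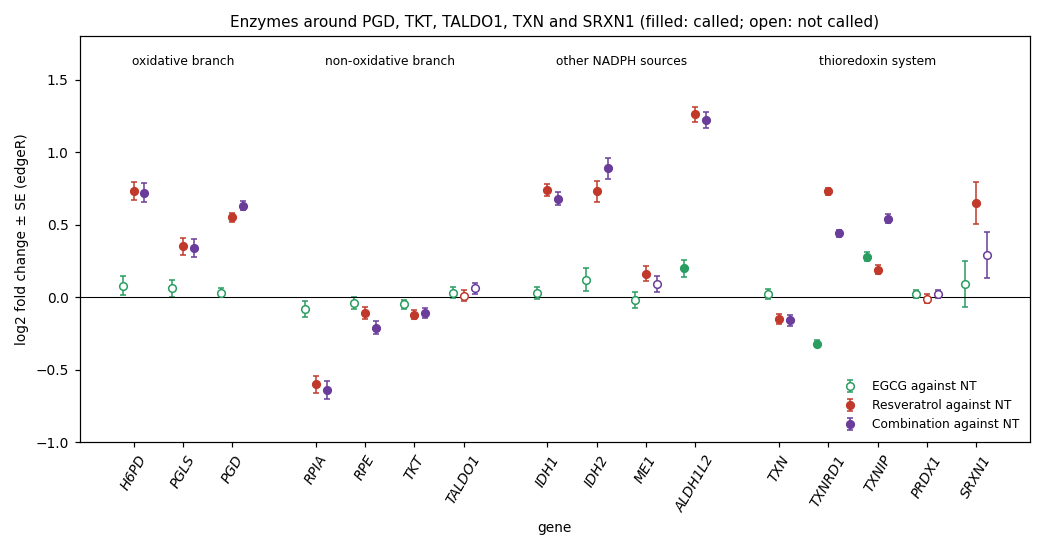
Log2 fold change against NT ± SE (y axis, edgeR) of enzymes by pathway (x axis) for EGCG, resveratrol and the combination; filled points were called. The plotted enzymes of the oxidative branch are above 0 with both resveratrol treatments, RPIA, RPE and TKT are below 0, and TXNRD1 is the plotted gene with a called fall with EGCG alone, at -0.32.

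Of 15 other tested genes listed around NADPH supply, 7 rose and 5 fell with resveratrol, and 6 rose and 5 fell with the combination. Over all tested genes 28.9% were called higher and 28% lower with resveratrol, and 29.9% in each direction with the combination. The medians of the 15 genes were -0.03 and -0.01, and H6PD is counted here too. ALDH1L2, the mitochondrial enzyme that makes NADPH from formyl-folate, rose by 1.26 and 1.22 and was also called higher with EGCG alone, at 0.20. The isocitrate dehydrogenases IDH1 and IDH2 rose by 0.74 and 0.73 with resveratrol and by 0.68 and 0.89 with the combination. ME1, the cytosolic malic enzyme, rose by 0.16 with resveratrol and was at 0.09 with the combination (edgeR adjusted p = 0.151). The 5 that fell with resveratrol were named after their values were seen. They were MTHFD1 (-0.34), MTHFD1L (-0.38) and MTHFD2L (-0.43) of folate metabolism, the mitochondrial malic enzyme ME3 (-0.32) and the glutamate dehydrogenase GLUD1 (-0.08). With the combination MTHFD2L was at -0.21 and not called (edgeR adjusted p = 0.189). MTHFD2, also of folate metabolism and also named after its values were seen, rose by 0.49 with resveratrol and 0.56 with the combination. ALDH1L1 had too few counts to be tested.

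In the thioredoxin and peroxiredoxin system, 11 of 24 other genes rose and 6 fell with resveratrol, and also with the combination, with a median of 0.05 in both, beside 28.9% higher and 28% lower, and 29.9% in each direction, over all tested genes. TXNRD1, the reductase that recycles thioredoxin, moved in opposite directions with the single agents. It fell by 0.32 with EGCG (SE 0.0249, edgeR adjusted p = 1.3e-11), rose by 0.73 with resveratrol, and rose by 0.44 with the combination. The combination differed from resveratrol alone by -0.29 (edgeR adjusted p = 2.1e-10). TXNIP, the inhibitor of thioredoxin, chosen here after its values were seen, rose in all 3 comparisons with NT, by 0.28 for EGCG, 0.19 for resveratrol and 0.54 for the combination. GLRX, a glutaredoxin, rose by 1.21 and 1.02 with resveratrol and the combination, and SESN2, a stress-induced sestrin, by 0.55 and 0.82. The following were named after their values were seen. GLRX2 rose by 0.36 and 0.34, while GLRX3 fell by 0.45 and 0.56 and GLRX5 by 0.24 and 0.40. PRDX4 fell by 0.24 and 0.29 and PRDX6 by 0.10 and 0.09. PRDX2 rose with resveratrol alone, by 0.16, and with the combination PRDX5 rose by 0.13 and PRDX3 fell by 0.14. PRDX1, a peroxiredoxin and a substrate of thioredoxin and sulfiredoxin, was at -0.01 and 0.02 and was not called.

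Among 29 other tested NRF2 targets, 24 rose with resveratrol and the other 5 were not called, with a median of 0.50, and 22 rose with the combination and the other 7 were not called, with a median of 0.49. Over all tested genes 28.9% and 29.9% were called higher. EGCG alone raised 2 and lowered 3 of the targets, with a median of -0.02, beside 0.905% and 0.859% of all tested genes. The largest rises were those of the aldo-keto reductases AKR1C2 (2.39 with resveratrol), AKR1C1 (2.24) and AKR1C3 (1.88), whose near-identical sequences leave the split of reads between them uncertain. GCLC and GCLM, the 2 subunits of the enzyme that begins glutathione synthesis, rose by 1.42 and 0.62 with resveratrol and by 1.54 and 0.64 with the combination. HMOX1, heme oxygenase, rose by 0.85 and 0.94. AKR1B10 had too few counts to be tested.

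Among 21 partners and regulators of NRF2, 10 rose and 7 fell with resveratrol, and 11 rose and 8 fell with the combination, with medians of 0.04 and 0.12, beside 28.9% higher and 28% lower, and 29.9% in each direction, over all tested genes. SQSTM1, the autophagy receptor p62 that competes with NRF2 for KEAP1, rose by 0.97 and 1.08. CUL3, the scaffold of the KEAP1 ligase, fell by 0.33 and 0.43. Of the small MAF genes, MAFG rose by 0.35 and 0.51 and MAFF by 0.20 and 0.47, and MAFF was also higher with EGCG alone, at 0.25. MAFK was at 0.04 with resveratrol, where it was not called, and rose by 0.12 with the combination. BACH1, a repressor that occupies the same DNA elements, rose by 0.12 and 0.18, BACH2 by 0.36 and 0.67, and the NRF2 relative NFE2L1 by 0.45 and 0.60. MAFG, MAFF, NFE2L1 and SQSTM1 were also higher with the combination than with resveratrol alone, by 0.16, 0.27, 0.15 and 0.11. These were the 4 called rises of the 21 in that comparison, where 4.01% of all tested genes were called higher. The 1 called fall was CAND1, at -0.13 (edgeR adjusted p = 0.0876), where 3.86% of all tested genes were called lower. CAND1 was named here after its values were seen.

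**Figure D4:**
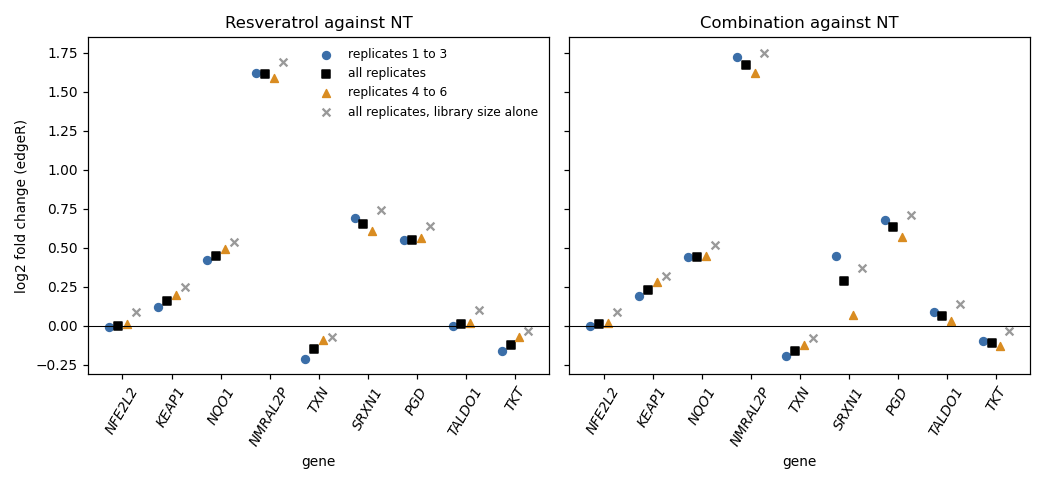
Log2 fold change (y axis, edgeR) of the 9 genes (x axis) against NT for resveratrol (left) and the combination (right), fitted in replicates 1 to 3, in all replicates, in replicates 4 to 6, and in all replicates scaled by library size alone. NQO1, NMRAL2P, PGD and KEAP1 stay above 0 in each fit, while SRXN1 with the combination was 0.45 in one set and 0.07 in the other.

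Within each set of replicates NQO1, NMRAL2P and PGD kept their size with resveratrol, at 0.42, 1.62 and 0.55 in replicates 1 to 3 and 0.49, 1.59 and 0.56 in replicates 4 to 6. SRXN1 was at 0.69 and 0.61 in these sets. With library size alone as the scaling, more of the tested genes were called higher: 6147 of 9004 calls with resveratrol, beside 4466 of 8807 with TMM scaling. The split was 6041 of 9352 beside 4633 of 9258 for the combination against NT, and 5737 of 8987 beside 4440 of 8950 for the combination against EGCG. Under that scaling NFE2L2 and TALDO1 were called higher with resveratrol, at 0.09 and 0.10, where the median of all tested genes was also 0.09. The remaining genes most like a member were RNF114, TRIM25 and ADIPOR1 for KEAP1, MLEC, TOP1 and ATP1B3 for NFE2L2, SPINT2, HM13 and EIF1 for TALDO1, SNRNP70, RANGAP1 and DDB1 for TKT, and FAM234B, FAM111A-DT and ZFPM1 for SRXN1. Their mean absolute differences were 0.0304 to 0.0412, except for SRXN1, where they were 0.2 to 0.202.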

How the data were processed

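The authors extracted total RNA, prepared stranded mRNA libraries (TruSeq), trimmed paired reads with Trimmomatic 0.36 and aligned them to GRCh38 with HISAT2 2.0.4. The counting program, annotation and strand setting are not given in the sources used here. The authors deposited raw counts per gene, without pooling. Their deposited normalized counts (signal) equalled raw counts divided by 1 factor per library when checked, and the deposited FPKM values equalled normalized counts divided by a length per gene. Symbols and coordinates came from GENCODE v44, by gene ID.

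For the tests, edgeR 4.0.16 (R 4.3.3) was run on the raw counts of 24 libraries together, with TMM scaling, filterByExpr and the quasi-likelihood test. DESeq2 1.42.0 was an alternative. On simulated counts with 200 changed genes among 15321, edgeR called 180 of them and 18 unchanged genes, and DESeq2 176 and 14. In the data, edgeR called 9258 of 15476 genes for the combination against NT. Recovery with so many changed genes was not tested. Exact permutation tests were two-sided on log2 CPM (prior count 2), 6 libraries against 6, for 9 genes and 5 comparisons, with 0.00216 as the smallest possible p. Intervals are 95%, from the edgeR standard error.

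The 9 genes, the gene lists and the tests were chosen with earlier results of these data known. Of each list the text names the 3 genes with the largest called change with resveratrol or the combination, genes that stand beside a member and genes near 0. For 1 listed gene no result is reported here, and it is left out of the counts of its lists. The genes most like a member had the smallest mean absolute difference in log2 CPM centred on NT over 24 libraries. Alternatives were DESeq2, DESeq2 size factors, library size alone, other filters (at least 1 count in all, or at least 10 in every library), an adjusted p under 0.05 and only the groups compared. Others were the replicate number as a block, batch as a term, replicates 1 to 3 or 4 to 6 alone, and each library left out. Batch here means replicates 1 to 3 against replicates 4 to 6, a split that no label names as a batch. Same-numbered libraries deviated together only weakly (correlations -0.0111 to 0.131, median 0.0488, 2 of 36 pairs over 0.1). The median was 0.0276 for other numbers within the same set of 3 replicates and -0.0406 between the sets. The numbers were not taken to pair the samples in the main fit. With the replicate block, calls over all tested genes were 1520 beside 1217 for the combination against resveratrol, and 85 beside 41 for the interaction.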

Additional observations from a re-analysis of the deposited data

Results flagged for a closer look

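In 3 of 36 groups of 6 normalized counts, 1 library stood farther from its nearest neighbour than Dixon's 95% limit allows, where chance flags about 1 group in 20. NFE2L2 was highest in resveratrol replicate 6, at 2093, with the next at 1995. NMRAL2P was highest in NT replicate 5, at 96.9, with the next at 83.99. TKT was highest in combination replicate 3, at 4368, with the next at 3958, and without that library the combination differed from EGCG by -0.10 and was called (edgeR adjusted p = 0.00627).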

How the results depend on the processing

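Of 585 single-gene values under up to 11 alternative settings, 547 kept their direction and side of the threshold, and of 756 with a library left out, 719 did. KEAP1, NQO1, NMRAL2P and PGD stayed called higher with resveratrol and with the combination against NT in every setting and with every library left out, and so did SRXN1 with resveratrol. With library size alone, 0 of the 9 genes were called lower with resveratrol, and with the combination 7 were called higher and 1 lower. In replicates 4 to 6 alone 1 was called lower with resveratrol. SRXN1 in the combination against resveratrol was called lower, as the 1 gene of the 9, with the filter of at least 1 count (-0.37, adjusted p = 0.0435), the replicate block (-0.36, adjusted p = 0.0503) and batch as a term (-0.36, adjusted p = 0.0995). With a library left out, 0 to 1 were called lower there. TKT joined TXN as lower in the combination against EGCG, making 2, with the replicate block (-0.06, adjusted p = 0.0585) and batch as a term (adjusted p = 0.0832), and leaving out libraries gave 1 to 2. These 2 were called without EGCG replicate 5 or combination replicate 3. SRXN1 in the combination against NT was also called with the replicate block (0.30, adjusted p = 0.0427), library size alone (0.37, adjusted p = 0.0455), the filter of at least 1 count (0.28, adjusted p = 0.0738) and replicates 1 to 3 alone (0.45, adjusted p = 0.0715), and ranged from 0.19 to 0.37 with a library left out. Among the 9 genes the block changed no other call, and 11 of 24 libraries correlated best with their own number. NFE2L2 in the combination against EGCG lost its call with the filter of at least 1 count (0.06), and in replicates 1 to 3 and 4 to 6 alone (0.07 in each). The cause of these changes was not tested.

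Values that changed sign were not called before or after the change. In replicates 4 to 6 alone these were KEAP1 (0.02) and PGD (-0.01) for EGCG against NT, TKT for the combination against resveratrol (-0.05), SRXN1 for the combination against EGCG (-0.08), and the interaction of NQO1 (-0.05) and TALDO1 (-0.00). In replicates 1 to 3 alone they were NFE2L2 (-0.01) and TALDO1 (-0.00) for resveratrol against NT, and NQO1 (0.02) and TXN (0.02) for the combination against resveratrol. NFE2L2 for resveratrol against NT was at -0.00 with DESeq2, DESeq2 size factors and the filter of at least 1 count. With library size alone, TKT was at -0.00 for the combination against resveratrol and 0.01 for the combination against EGCG, and the NQO1 interaction at -0.00. With a library left out, EGCG against NT ranged from -0.04 to -0.00 for KEAP1, -0.01 to 0.05 for TXN, -0.04 to 0.18 for SRXN1 and -0.08 to 0.01 for NMRAL2P. Resveratrol against NT ranged from -0.01 to 0.02 for NFE2L2 and -0.01 to 0.03 for TALDO1, and the combination against NT from -0.00 to 0.03 for NFE2L2. The combination against resveratrol ranged from -0.04 to -0.00 for NQO1, -0.02 to 0.01 for TXN and -0.03 to 0.02 for TKT. The combination against EGCG ranged from 0.00 to 0.07 for TALDO1, and the interaction from -0.01 to 0.03 for NQO1 and -0.01 to 0.04 for TALDO1. SRXN1 and NMRAL2P, which had the lowest counts of the 9 genes, also had the widest intervals, and the cause of this was not tested.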
